A study of Homo sapiens with 2 samples.

Results

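The forkhead (FOX) genes encode transcription factors that share a winged-helix DNA-binding domain, and the letter after FOX gives the subfamily. Here they were described by the LDB1 peaks that lie at them in NB4 cells. All protein-coding genes whose symbol is FOX, 1 letter from A to S and a number were taken from RefSeq (GRCh38.p14), which gave 45 genes in 19 subfamilies. The table held 19974 protein-coding genes on the autosomes and X. A peak was counted for a gene when its midpoint lay in the gene or within 10 kb of it, and it was called a gene-end peak when the midpoint lay within 1 kb of either boundary of the gene. By this rule 153 of the 52765 LDB1 peaks on those chromosomes belonged to FOX genes. The rule used gene names and distances and no measured value.

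NB4 cells were grown from a patient with acute promyelocytic leukaemia, carry the PML::RARA fusion and were left untreated here. The peaks came from 1 CUT&Tag library, in which an antibody against LDB1 tethers the Tn5 transposase so that nearby DNA is cut and tagged. A second library of the same untreated cells was made with a non-specific IgG, and no values of it were analysed here. Without a replicate, the spread between cultures is unknown for every count, and no p-value is given. Each peak was given by its position and width, with no height or read count, so the depth is unknown. No background measured the same way in the IgG library is set beside them. RNA was not measured, so a peak says nothing of whether a gene was expressed. All 10 myeloid genes that were looked up to check the cell label (SPI1, CEBPA, CEBPE, MPO, ELANE, AZU1, PRTN3, CD33, GFI1 and MYB) had a peak in or within 10 kb of the gene, beside 70.1% of all protein-coding genes. The windows of AZU1 and ELANE each overlap that of PRTN3, so the counts of these neighbours are not independent. Peaks at the 10 genes do not establish the cell type.

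LDB1 is an adaptor without a DNA-binding domain. It reaches DNA through LMO proteins, which hold GATA and basic helix-loop-helix factors, and its own dimers bring distant sites together. The basic helix-loop-helix factors bind E-boxes and GATA factors bind GATA motifs. FOX proteins act far apart in the body. FOXA factors open chromatin in endoderm, FOXC, FOXD, FOXF and FOXL factors pattern mesenchyme, FOXO factors carry the signal of insulin and growth factor receptors to genes of quiescence and survival, FOXP3 specifies regulatory T cells and FOXM1 drives genes of mitosis. In blood, FOXO factors are known for keeping stem cells quiescent and FOXP1 for lymphoid and monocyte development.

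LDB1 peaks lay at most FOX genes, and more than 1 lay at many of them. A peak was counted for 40 of the 45 genes, 88.9% (exact Clopper-Pearson 95% interval 75.9 to 96.3%), where the share among all protein-coding genes was 70.1%. A gene-end peak was found for 22 of 45, 48.9% (33.7 to 64.2%), beside 37.6% of all protein-coding genes. The interval for gene ends contains the share of all genes, and that for the 10 kb window does not. Such intervals take the genes as independent draws, although some FOX genes lie close together and 1 peak was counted for both FOXC2 and FOXL1. They are no test against all genes, whose share is not matched here for gene length or place on the chromosome. They measure neither error in the list of peaks nor the spread between cultures. The median was 3 peaks per FOX gene and 1 per protein-coding gene. At least 3 peaks were counted for 24 FOX genes (53.3%, beside 32.5% of all genes) and at least 5 for 11 (24.4%, beside 17.1%). Peaks at FOX genes ran from 323 to 4005 bp in width with the median at 663 bp, and over all peaks the median was 550 bp. At least 1 kb was reached by 34 of the 153 (22.2%), beside 16.5% of all peaks.

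The 153 peaks were unevenly shared among the subfamilies. FOXK genes held 35 and FOXP genes 21, followed by FOXN with 13, FOXA and FOXO with 11 each and FOXD with 10, while FOXM held 0. Without FOXK1 and FOXP4 the number of distinct peaks was 109 and the median per gene was still 3. Of the 153 peaks, 88 had their midpoint in a FOX gene and 27 at a gene end. For 141 a FOX gene was the nearest protein-coding gene. In 38 of the 154 pairs of a FOX gene and a peak, another protein-coding gene also lay within 10 kb, so such a peak cannot be assigned to the FOX gene by distance. With each peak given to its nearest gene alone, 39 FOX genes had a peak and 22 a gene-end peak, and the median per FOX gene was 2.

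**Figure D1:**
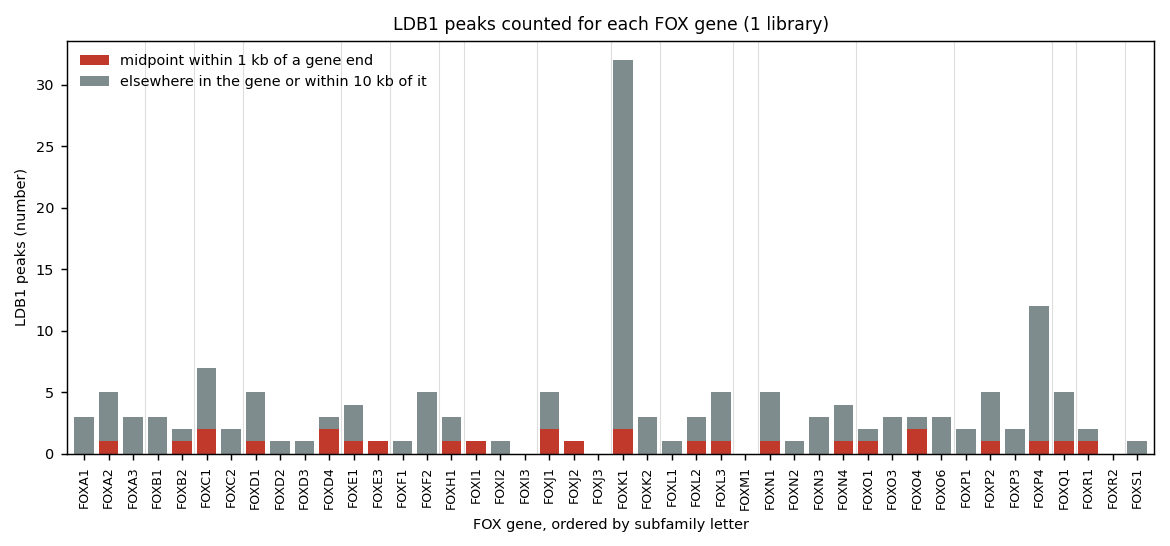
Number of LDB1 peaks (vertical axis) counted for each of 44 FOX genes (horizontal axis, ordered by subfamily letter) in the 1 LDB1 library. Red parts are peaks with a midpoint within 1 kb of a gene end and grey parts are the other peaks in the gene or within 10 kb. FOXK1 stands apart with 32 peaks, FOXP4 has 12, and FOXI3, FOXJ3, FOXM1 and FOXR2 have 0.

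Gene length and the place on the chromosome both bear on such counts, so the same shares were taken in classes of each. Of the FOX genes, 29 were under 10 kb long. A peak was counted for 26 of these 29 (89.7%), beside 62.1% of all protein-coding genes under 10 kb, and for 14 of the 16 longer FOX genes (87.5%), beside 73.2% of longer genes. Gene-end peaks were found for 15 of the 29 (51.7%, beside 37.3%) and for 7 of the 16 (43.8%, beside 37.7%). The outer 5 Mb of chromosomes, which are dense in peaks, held 12 of the 45 FOX genes (26.7%), beside 13.4% of all protein-coding genes. Of those 12, 11 had a peak counted and 6 a gene-end peak, beside 78.8 and 40.7% of all genes there. Among the 33 FOX genes elsewhere, 29 (87.9%) had a peak counted and 16 (48.5%) a gene-end peak, beside 68.7 and 37.1% of other genes there. Of the 20 FOX genes that were both short and elsewhere, 17 had a peak counted and 10 a gene-end peak, beside 60.2 and 36.6% of such genes. The FOX share was the higher one in each of these classes. In finer classes of length it was not always so. Of the 6 FOX genes over 100 kb, 2 had a gene-end peak (33.3%) and 5 a peak counted (83.3%), beside 41.0 and 84.1% of all genes of that length, and of the 4 FOX genes of 10 to 30 kb, 1 had a gene-end peak, beside 36.8%. These classes hold few FOX genes.

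The peaks stood out from their surroundings most at the short FOX genes. The number of peaks per 10 kb was compared between the window of each gene (the gene and 10 kb to either side) and the 500 kb beyond that window on either side. The window was the denser for 35 of 45 FOX genes (77.8%), beside 47.6% of all protein-coding genes. It was more than 3 times as dense for 14 FOX genes (31.1%). All 14 were under 10 kb long, so that 14 of 29 short FOX genes (48.3%) passed this ratio beside 21.8% of all genes under 10 kb, while 0 of the 16 longer FOX genes did beside 13.8% of longer genes. A narrow window around a short gene holds the gene ends in a larger part of its length, which is why the classes are given apart. The 14 were FOXA1, FOXA2, FOXB1, FOXB2, FOXC1, FOXC2, FOXD1, FOXD3, FOXD4, FOXE1, FOXF2, FOXL2, FOXO4 and FOXQ1. FOXB1, a gene of the developing hypothalamus, had the highest ratio, with 3 peaks in its window and 2 in the flanks. FOXD3, a neural crest gene, passed it with 1 peak in the window and 2 in the flanks, so its ratio rests on few peaks. The ratios of FOXB1, FOXA1 (3 in the window and 5 in the flanks) and FOXB2 (2 and 4) rest on few as well. FOXE1 and FOXC2 passed narrowly, at 3.10 and 3.12 times, and 1 of the 2 FOXC2 peaks lay nearer to FOXL1. FOXH1 and FOXL3 lay in peak-rich surroundings, with 1.38 and 2.33 peaks per 10 kb in the flanks, and their own 1.34 and 2.35 per 10 kb were close to those.

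**Figure D2:**
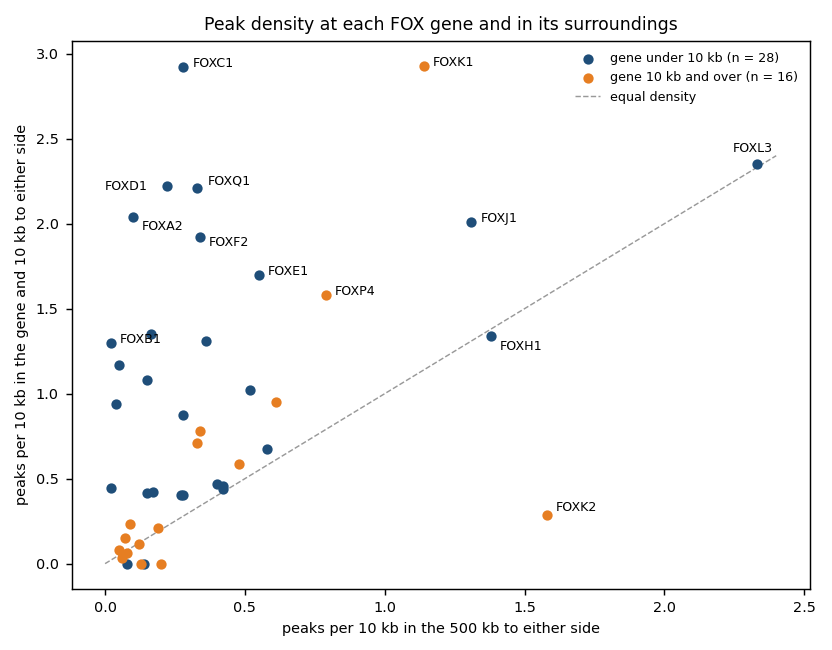
LDB1 peaks per 10 kb in each FOX gene with 10 kb to either side (vertical axis) against peaks per 10 kb in the 500 kb beyond it on either side (horizontal axis) for 44 genes, 1 point each (blue for genes under 10 kb, orange for longer ones), with the dashed line at equal density. FOXC1 and FOXK1 are the densest at 2.92 and 2.93 peaks per 10 kb, in flanks of 0.280 and 1.14 per 10 kb, and FOXK2 lies far below the line at 0.286 against 1.58.

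With strand known, the peaks were placed along the gene. The RefSeq promoter table listed a transcription start for 34 of the 45 genes, and among those not matched were FOXA2, FOXC2, FOXE3, FOXF1, FOXH1, FOXJ1, FOXL1, FOXM1, FOXN2 and FOXS1. Among the 34, a gene-end peak lay at the 5′ boundary alone in 12 genes, at the 3′ boundary alone in 1 (FOXL2) and at both in 5 (FOXC1, FOXD4, FOXK1, FOXL3 and FOXO4). FOXL3 is so short that both of its boundaries lie near the same peak. A listed start lay under a peak in 11 of the 34 genes. For FOXP2 the outermost listed start lies deep inside the gene and not at its 5′ boundary. The FOXP2 peaks at that boundary are therefore not counted near its start or over its promoter below.

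FOX genes carried peaks just inside the gene at a higher share than all genes did, though not only there. A peak midpoint lay 1 to 2 kb downstream of the outermost listed start in 12 of 34 FOX genes (35.3%), beside 6.22% of the 15812 protein-coding genes with a listed start. The 12 were FOXB1, FOXC1, FOXD1, FOXD4, FOXF2, FOXI2, FOXL2, FOXN1, FOXO1, FOXO3, FOXP1 and FOXQ1, with 1 such peak each. In the 1 kb to either side of the start the shares were nearer, at 16 of 34 (47.1%) beside 32.7%. Among genes under 10 kb the share from 1 to 2 kb was 8 of 20 FOX genes beside 9.04%. Among genes with at least 60% G and C in those 250 bases the share from 1 to 2 kb was 9 of 25 beside 6.88%. The interval from 1 to 2 kb was chosen after the values were seen. From 500 to 1500 bp the shares were 9 of 34 beside 9.55%, and from 1500 to 2500 bp they were 9 of 34 beside 4.87%. Other bins also held more peaks per gene per kb at FOX genes. From -5000 to -2000 bp, upstream of the start, the rates were 0.0980 beside 0.0320, and from 2000 to 5000 bp they were 0.108 beside 0.0404. From -10000 to -5000 bp the FOX rate was the lower, at 0.0294 beside 0.0371.

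**Figure D3:**
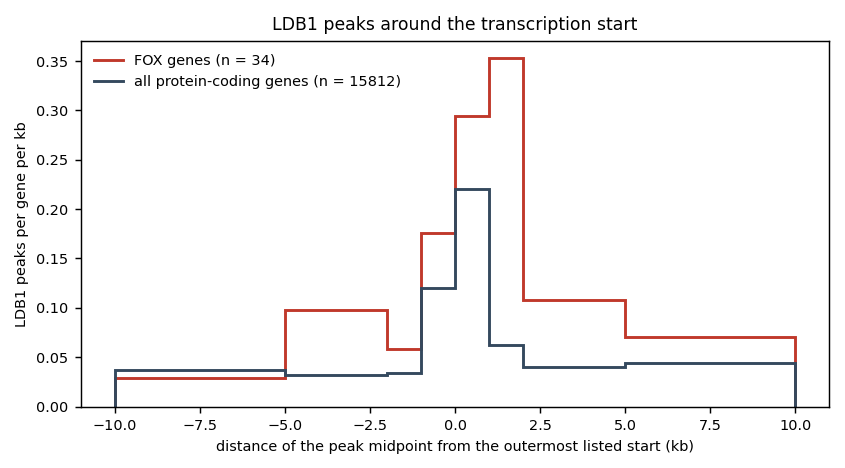
LDB1 peaks per gene per kb (vertical axis) by distance of the peak midpoint from the outermost listed start (horizontal axis, kb, positive into the gene) for 34 FOX genes (red) and for the 15812 protein-coding genes with a listed start (dark). In the bin from 1 to 2 kb the FOX genes reach 0.353 peaks per gene per kb (12 peaks), and all genes 0.0622. From -5000 to -2000 bp they reach 0.0980 beside 0.0320, and from -10000 to -5000 bp they lie lower, at 0.0294 beside 0.0371. The FOX bins hold 2 to 12 peaks each.

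The promoters themselves were taken as the 250 bases before the outermost listed start. A promoter was called under a peak when at least 1 of its bases overlapped one, so part of it can lie outside. This held at 12 of 34 FOX genes (35.3%, beside 22.8% of all promoters). These 12 belonged to FOXB2, FOXD1, FOXE1, FOXI1, FOXJ2, FOXK1, FOXN1, FOXN4, FOXO3, FOXP4, FOXQ1 and FOXR1. FOX promoters were rich in G and C, with a median of 68.0% beside 62.0% over all promoters, and promoters under a peak were rich in them in general (67.2%). In promoters with 60 to 70% G and C a peak lay over 5 of 10 FOX promoters beside 31.3% of all, and in those with 70% or more over 5 of 15 beside 34.5%. The counts per class are small. The E-box was searched as CAGNTG, the GATA motif as GATAA, the ETS motif as GAGGAA, the RUNX motif as TGTGGT or TGCGGT, and the forkhead motif as TAAACA, each on both strands. An E-box lay in 8 of the 12 FOX promoters under a peak, beside 39.3% of the 3609 promoters of all genes under a peak. It lay inside the peak itself in 6, beside 30.5%. The 6 were FOXD1, FOXI1, FOXJ2, FOXN4, FOXP4 and FOXR1. GATAA lay inside the peak in 0 of the 12 (8.12% of all promoters under a peak), and the forkhead motif in 0 as well (2.44%). The ETS motif lay inside the peak in 1 of the 12 (16.7% of all) and the RUNX motif in 1 (11.8%). Over all 34 FOX promoters, E-boxes were in 15 (44.1%, beside 39.7% of all promoters) and GATAA in 5 (14.7%, beside 16.6%). A match is a run of letters and was not tested as a binding site.

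Shown are 4 promoters from RefSeq (GRCh38.p14), 5′ to 3′ on the strand of the gene and ending at the base before the start. Those of FOXD1 and FOXP4 hold an E-box inside a peak. That of FOXO3 lies under the widest peak at a FOX promoter and holds no match, and that of FOXF2 holds GATAA and ETS matches and has no peak over it. Capitals mark any match to the 5 motifs.
FOXD1 (chr5:73448778-73449027, minus strand): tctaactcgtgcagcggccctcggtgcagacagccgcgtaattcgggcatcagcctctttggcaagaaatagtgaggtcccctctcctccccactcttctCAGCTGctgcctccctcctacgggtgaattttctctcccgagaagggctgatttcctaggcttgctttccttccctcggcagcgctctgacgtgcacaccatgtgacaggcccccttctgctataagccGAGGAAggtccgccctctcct
FOXP4 (chr6:41546131-41546380, plus strand): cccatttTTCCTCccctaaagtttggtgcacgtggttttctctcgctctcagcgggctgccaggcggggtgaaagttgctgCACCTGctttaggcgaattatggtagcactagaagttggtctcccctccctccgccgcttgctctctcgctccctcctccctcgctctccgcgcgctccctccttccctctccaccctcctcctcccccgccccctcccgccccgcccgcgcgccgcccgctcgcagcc
FOXO3 (chr6:108559575-108559824, plus strand): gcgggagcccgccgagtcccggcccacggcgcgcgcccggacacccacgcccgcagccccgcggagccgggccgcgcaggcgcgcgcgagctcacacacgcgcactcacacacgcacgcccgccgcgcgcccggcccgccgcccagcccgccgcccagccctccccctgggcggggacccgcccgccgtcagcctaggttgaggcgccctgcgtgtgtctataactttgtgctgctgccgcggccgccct
FOXF2 (chr6:1389326-1389575, plus strand): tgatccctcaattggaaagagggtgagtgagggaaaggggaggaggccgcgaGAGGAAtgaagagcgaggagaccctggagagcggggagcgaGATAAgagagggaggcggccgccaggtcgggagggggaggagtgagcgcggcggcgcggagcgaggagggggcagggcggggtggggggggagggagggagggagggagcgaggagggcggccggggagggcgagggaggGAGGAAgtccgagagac
In FOXD1 the E-box CAGCTG begins 150 bases before the start, and the peak over it, 597 bp wide, has its midpoint 38 bases upstream of the start. In FOXP4 the E-box reads CACCTG, the same motif on the other strand, and begins 169 bases before the start under a peak of 888 bp. The ETS match of FOXP4 at 243 bases before the start lies outside that peak.

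The FOXA, FOXB and FOXD genes, which encode factors of endoderm, brain and mesenchyme, were short genes with 1 to 5 peaks each. FOXA2, needed for endoderm and floor plate, had 5 peaks, of which 3 lay to 1 side of the gene and 2 inside it, the widest of 1064 bp inside (chromosome 20, 22582786 to 22583849). FOXA1 had 3, the widest of 1356 bp lying 4879 bp beyond its 3′ boundary. The other 2 FOXA1 peaks also lay within 10 kb of TTC6, 1 of them inside TTC6. The 3 peaks counted for FOXA3 all lay outside it, within 10 kb of SYMPK, IRF2BP1 or MYPOP as well. FOXB1 had 3 peaks and FOXB2 had 2, and the wider FOXB2 peak of 1160 bp covered its start. FOXD1, a gene of kidney stroma, had 5 peaks, including 1 of 1192 bp inside the gene, 1 across the start and 1 of 1748 bp at 9369 bp beyond the 3′ boundary. FOXD2 and FOXD3 had 1 peak each, of 1574 and 827 bp, both over 4 kb outside the gene. FOXD4 had 3 peaks of up to 726 bp, but this gene has near-identical copies. Of 5 FOXD4L copies in RefSeq, 4 had a peak within 10 kb and 3 had 1 at a gene end. How reads that match several copies were assigned is not given in the sources used here, so the peaks at FOXD4 are uncertain.

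FOXC, FOXF, FOXL and FOXQ genes lie partly in 2 groups, each with a FOXF and a FOXC gene, whose peaks differed. On 6p25, FOXQ1, FOXF2 and FOXC1 lie within 322 kb (with 10 kb at either side), which held 25 peaks, 17 of them counted for these genes and 8 between the windows. On 16q24, FOXF1, FOXC2 and FOXL1 lie within 93.0 kb, which held 6 peaks, 3 of them counted for these genes. The densities were 0.777 and 0.645 peaks per 10 kb, while 6 peaks on 6p25 and 0 on 16q24 were at least 1 kb wide. FOXC1, a factor of eye, skeletal and marrow stroma, had 7 peaks that covered 34.9% of its window. The widest, of 2682 bp (chromosome 6, 1618210 to 1620891), lay 5653 bp beyond its 3′ boundary, nearer to GMDS than to FOXC1. FOXF2 had 5 peaks with the widest at 1777 bp inside the gene, and FOXQ1 had 5 with the widest at 999 bp across its start. The paralogues on 16q24 had fewer. FOXC2, a gene of lymphatic vessels, had 1 peak of 323 bp inside it and 1 of 397 bp that was also counted for FOXL1, FOXL1 had no other, and FOXF1, a gene of lung and gut mesenchyme, had 1 of 864 bp outside it. All 6 genes belong to the 12 near chromosome ends. FOXL2, which is needed in ovarian granulosa cells, had 3 peaks and FOXL3 had 5, with the widest at 1411 and 1976 bp, both outside the gene. Of the FOXL2 peaks, 2 also lay within 10 kb of FOXL2NB.

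**Figure D4:**
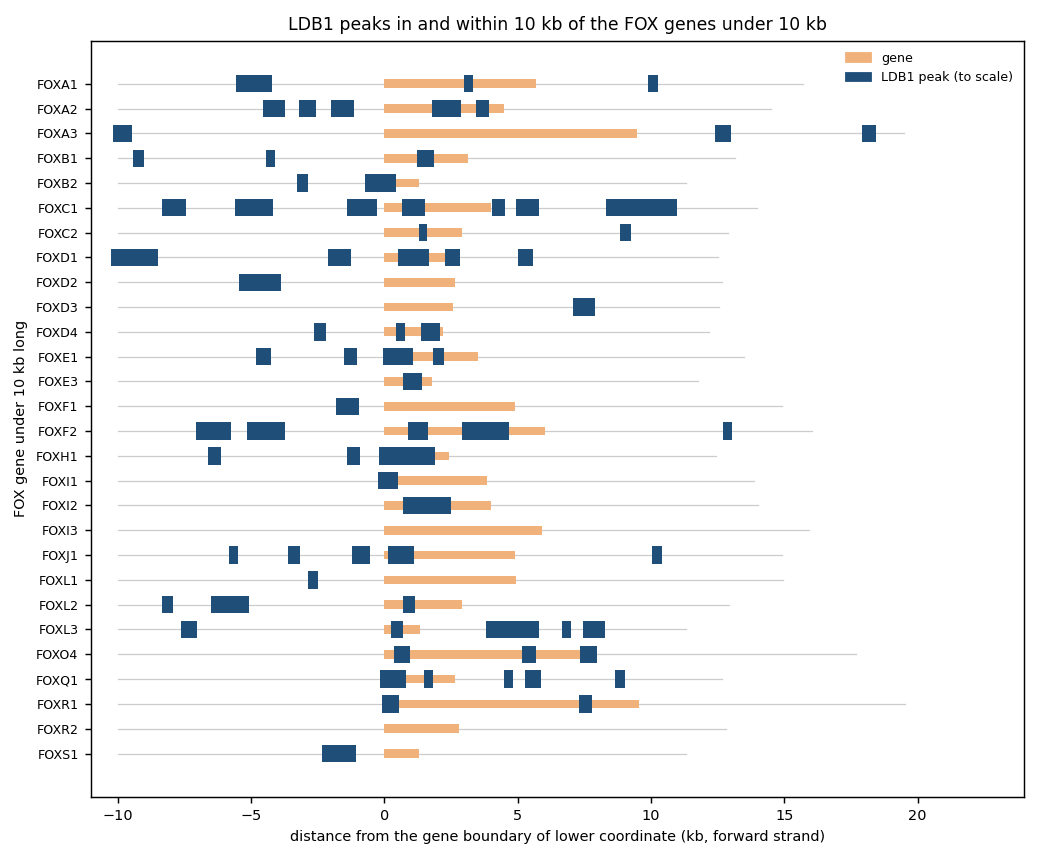
Positions of LDB1 peaks (blue, drawn to scale) around 28 FOX genes under 10 kb (orange), with distance in kb from the gene boundary of lower coordinate on the forward strand (horizontal axis) and 1 gene per row (vertical axis). The grey line is the window of 10 kb to either side. FOXC1 has 7 peaks across its window, its 16q24 paralogue FOXC2 has 2, and FOXI3 and FOXR2 have 0.

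Other short FOX genes of single tissues carried 0 to 5 peaks, with FOXI3 and FOXR2 at 0. FOXE1, a thyroid factor gene, had 4, the widest of 1129 bp across its start, and FOXE3, a lens gene, had 1 of 727 bp. FOXH1, which encodes a partner of SMAD proteins in Nodal signalling, had 3, the widest of 2108 bp across a gene end (chromosome 8, 144473211 to 144475318). All 3 FOXH1 peaks lie within 10 kb of neighbours such as KIFC2, and 2 of them lie inside KIFC2. FOXI1, a gene of ionocytes, had 1 peak of 745 bp across its start, and FOXI2 had 1 of 1823 bp inside it. FOXJ1, the gene of the regulator of motile cilia, had 5 of up to 956 bp, of which 4 also lay within 10 kb of RNF157, and its flanks held 131 peaks. FOXR1 had 2 peaks, 1 of them across its start. The single FOXS1 peak of 1260 bp lay 1714 bp outside the gene, within 10 kb of MYLK2 and DUSP15 as well.

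The FOXK paralogues gave the largest contrast within a subfamily. FOXK1 and FOXK2 encode widely expressed repressors that work with SIN3 complexes, and the genes are of like length, 89.1 and 84.9 kb. FOXK1 had 32 peaks and FOXK2 had 3, a ratio of 10.7. The FOXK1 peaks ran along the whole gene, with 29 midpoints inside it, a median gap of 1.63 kb and a median width of 803 bp, and 9 were at least 1 kb wide. The widest, of 4005 bp (chromosome 7, 4762807 to 4766811), was also the widest at any FOX gene and lay 6633 bp before the 3′ boundary. A peak of 2191 bp covered the FOXK1 start. The 3 FOXK2 peaks were 454, 380 and 362 bp wide, and its start had no peak within 1 kb. Both genes lie near chromosome ends in peak-rich surroundings, with 114 peaks in the flanks of FOXK1 and 158 in those of FOXK2. FOXK1 was thus 2.57 times as dense as its flanks and FOXK2 0.181 times. The part of these surroundings in the contrast was not tested beyond those ratios.

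**Figure D5:**
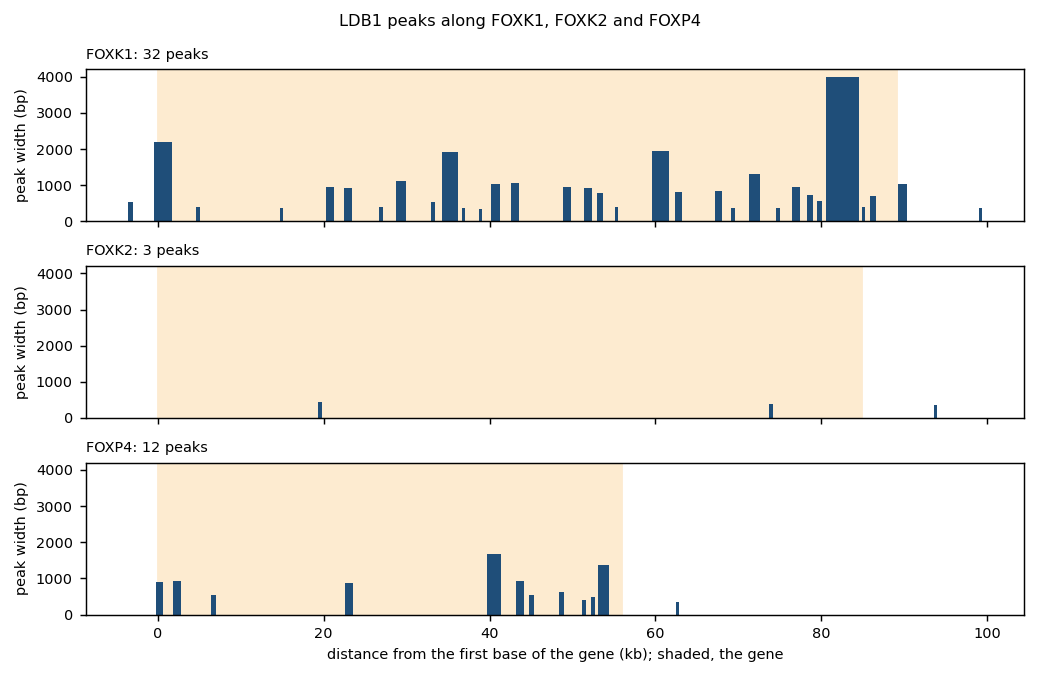
Width in bp (vertical axis, also drawn to scale along the horizontal axis) and position in kb from the first base of the gene (horizontal axis) of each LDB1 peak counted for FOXK1, FOXK2 and FOXP4, with the gene shaded. FOXK1 has 32 peaks along its length, FOXK2 of like length has 3, and FOXP4 has 12, with 9.61 kb covered by peaks.

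FOXO genes, the targets of AKT kinase, had 2 or 3 peaks each, and the FOXO3 promoter region held the widest. That peak was 3726 bp wide (chromosome 6, 108559106 to 108562831) and covered 3 of the 4 listed FOXO3 starts. Its midpoint lay 1143 bp inside the gene, so FOXO3 is not among the genes with a gene-end peak by the 1 kb rule. FOXO3 had a further peak of 562 bp upstream of it and 1 of 879 bp deep in the gene. FOXO1 had 2 peaks, of 783 and 584 bp, on either side of its start at 1308 bp inside and 772 bp upstream. FOXO4 had 3 inside the gene of up to 614 bp, all within 10 kb of CXorf65 and 2 within 10 kb of IL2RG. FOXO6 had 3 of up to 812 bp, with its gene ends clear of peaks.

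The genes around FOXO and FOXM1 were looked up in the same way, as 3 lists chosen by known function. Peaks were counted for 73.3 to 80.0% of their genes, beside 70.1% of all protein-coding genes, and gene-end peaks for 36.0 to 46.7%, beside 37.6%. Of 25 FOXO regulators, 20 had a peak counted and 9 a gene-end peak, with a median of 1 peak. Their median length was 86.1 kb, beside 24.2 kb for all protein-coding genes, and the share was not matched for length. A peak was counted for 71.8% of all genes of 30 to 100 kb and for 84.1% of those over 100 kb. Among the regulators, the widest peaks were at AKT2, a kinase that excludes FOXO from the nucleus (2122 bp, 14 peaks), YWHAZ, a 14-3-3 protein that binds phosphorylated FOXO (1488 bp), PIK3CD (1458 bp) and PDPK1 (1335 bp). PIK3CA and INSR had 0. Of 20 FOXO targets, 15 had a peak counted and 9 a gene-end peak, and the widest were at the pro-apoptotic gene BBC3 (3034 bp), at the growth arrest gene GADD45A (1812 bp), at SESN1 (1699 bp) and at the pro-apoptotic BCL2L11 (1601 bp). CCNG2, IL7R and PIK3IP1 had 0. Of 15 FOXM1 targets, 11 had a peak counted and 7 a gene-end peak, with the widest at CENPF, a kinetochore gene (3619 bp), and CDC20 (2202 bp), while CCNB2, CDK1 and KIF20A had 0. FOXM1 itself had no peak, and the nearest lay 13.3 kb away.

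FOXP genes differed most in how their peaks lay within them. FOXP4 had 12 peaks in and around 56.0 kb, 1.58 per 10 kb, with a peak of 888 bp across its start and the widest of 1666 bp inside it (chromosome 6, 41586064 to 41587729). FOXP1, of 629 kb, had 2 peaks of 364 and 362 bp, both within 2.5 kb of its 5′ boundary. FOXP2, of 607 kb and known for its part in speech, had 5 peaks of up to 887 bp, all within 10 kb of its 5′ boundary. None lay in the rest of FOXP1 or FOXP2. FOXP3 had 2 peaks of 624 and 477 bp, and both lay inside its neighbour CCDC22 beyond the 3′ boundary of FOXP3. Counted for the nearest gene alone, FOXP3 had 0. Of all protein-coding genes over 100 kb, 84.1% had a peak counted, and 5 of the 6 such FOX genes did.

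Among FOXN genes, FOXN1, the master gene of thymic epithelium, had 5 peaks. The widest were of 2388 and 1751 bp and lay inside the gene, 21103 and 17703 bp from the start (chromosome 17, 28526258 to 28528645 and 28523176 to 28524926). FOXN4, a gene of the retina, had 4 with the widest of 813 bp across its start. FOXN2 had 1 peak of 1386 bp, 1337 bp inside a gene end. FOXN3, of 463 kb, had 3 peaks of up to 943 bp deep in the gene, none of them within 100 kb of its start. FOXJ2 had 1 peak of 1468 bp across its start, while its paralogue FOXJ3 had 0 with the nearest 13.9 kb away.

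FOX genes without a peak differed in their surroundings. FOXI3 lay 97.2 kb away with 14 in its flanks. FOXJ3, FOXM1 and FOXR2 lay 13.9, 13.3 and 11.1 kb away with 20, 13 and 8 in their flanks, so they sit just beyond the 10 kb limit. At 50 kb, 43 of the 45 FOX genes had a peak, beside 86.1% of all protein-coding genes.

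Beside other families of developmental factors, the FOX genes were not the richest in peaks. A peak was counted for 37 of 39 HOX genes (94.9%), 17 of 19 SOX genes (89.5%) and 16 of 18 KLF genes (88.9%), the last at the same share as FOX genes. Gene-end peaks were found for 69.2, 63.2 and 44.4% of these families and for 48.9% of FOX genes. The median was 4 peaks per HOX gene and 3 per SOX and KLF gene. HOX genes lie in clusters and share peaks. The differences between families were not tested.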

How the data were processed

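The LDB1 and IgG libraries were 1 each, from untreated NB4 cells, made with the Hyperactive Universal CUT&Tag kit per the labels' protocols. The deposited table gave the position and length in bp of 53742 LDB1 peaks, per the file headers, of which the 52765 on chromosomes 1 to 22 and X were used. The submitters' processing notes name hg38, Bowtie2 2.4.1 and MACS2 2.0.10. Not given in the sources used here are the threshold, how reads with several matches were handled, and what the caller used as control. A looser threshold or more depth gives more and wider peaks, and 1 broad region can be listed as several peaks.

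Genes and promoters came from RefSeq (GRCh38.p14). Strand was known for genes in the promoter table. Chromosome ends were taken as the last gene or peak, and the flanks of 500 kb were stopped there. Counts were made with Python 3.11.15 and pandas 2.3.3, and were tested on simulated data with planted peaks. Exact binomial intervals at 95% came from scipy 1.17.1. No test between samples was possible. The single values of 1 FOX gene are not reported here, in text or figures.

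The members and lists were chosen with earlier results of these data known. The text may name every FOX gene, up to 4 genes with the widest peak and up to 3 without a peak of each other list, and genes that share a peak with a FOX gene. The alternatives changed peak width, distances, placement by overlap, membership and assignment to the nearest gene.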

Additional observations from a re-analysis of the deposited data

How the results depend on the processing

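With peak width as the stricter threshold, the median in the widest 50% of peaks was 1 per FOX gene and 1 per protein-coding gene. The number of distinct peaks at FOX genes was 96 there. In the widest 25% the median was 1 per FOX gene and 0 per protein-coding gene, and the distinct peaks were 59. There, 9 FOX genes had a gene-end peak (20.0%, beside 13.9% of all protein-coding genes) and 25 had a peak counted (55.6%, beside 34.9%). At 500 bp to a gene end 14 genes had a gene-end peak (31.1%, beside 26.8% of all genes), and at 2500 bp 32 did (71.1%, beside 48.4%). In the gene body alone the median was 1 per FOX gene and 1 per protein-coding gene. The peaks were 88 there, and 71.1% of FOX genes had a peak beside 54.5% of all genes. With 50 kb to either side the median was 5 per FOX gene, beside 3 per protein-coding gene, and the peaks 294. Without the 12 genes in the outer 5 Mb the distinct peaks were 87, so these genes hold a large part of the total, and without FOXK1 there were 121. Without those 12 genes the median per FOX gene was 2, beside 1 for all protein-coding genes outside the outer 5 Mb. The settings without FOXK1, without FOXK1 and FOXP4, and with a shifted interval after the start were chosen after seeing the data. The other settings moved each count by at most 1.5 times. The FOX share stayed above that of all genes in each of the settings that changed width or distance. The median did not, since it was the same for FOX and all genes in the widest 50% of peaks and in the gene body alone. No paired analysis was possible because there is 1 library per antibody. The unknown depth and the lack of a replicate limit every count.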
